A study of Homo sapiens with 2 samples.

Results

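The endoplasmic reticulum (ER) chaperones and the unfolded protein response were followed through 40 genes, chosen by name from what is known of this system, with earlier results of these data known, of 49627 genes listed for RBMS1-depleted and control MDA-MB-231 cells. MDA-MB-231 is an established line of human breast cancer cells that lack the estrogen and progesterone receptors and HER2 amplification. The series holds 2 libraries of total RNA, 1 from cells with RBMS1 knocked down and 1 from control cells, both grown in L15 medium with FBS. The study's methods describe such lines as stable, made by lentiviral infection with shRNA in pLKO.1 and kept under puromycin, with the empty pLKO.1 vector as control. Since each group is 1 library, no difference has a replicate check, and each describes these 2 libraries. Whether a line was 1 clone or a pool was not given in the sources used here, and the labels do not name the shRNA.

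Proteins that enter the ER fold there with the help of chaperones, glycan-trimming enzymes and disulfide isomerases, and those that fail are sent back to the cytosol and degraded by the proteasome (ER-associated degradation, ERAD). When unfolded proteins build up, the membrane sensors ERN1 (IRE1), EIF2AK3 (PERK) and ATF6 switch on the unfolded protein response, which raises the transcription of the chaperones themselves. ERN1 acts by cutting a short intron out of the mRNA of XBP1 in the cytosol, and only the cut mRNA encodes the strong activator. Cells that make many secreted and membrane glycoproteins depend on this system.

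The promoters of many chaperone genes carry an ER stress response element, a pair of short boxes read by NF-Y and by ATF6 or XBP1. These sites are shown because they are the sequences through which the response acts. Several of the genes are known as its targets, so a high share of matches is not independent of how they were chosen. The search covered 300 bases around each start site in RefSeq (GRCh38.p14), from 250 bases before to 50 after, on both strands, and 36 of the 40 genes were found in that table. The element ERSE was searched as the box CCAAT, 9 bases of any kind and the box CCACG, and was found in 7 of the 36 genes (19.4%), against 27 of all 35116 promoter windows (0.0769%). ERSE-II was searched as the box ATTGG, 1 base of any kind and the box CCACG, and was found in 3 of the 36 genes (8.33%), against 19 of all windows (0.0541%). The units differ, since a gene was counted with a match in any of its windows. The windows of the 36 genes are among the 35116. PDIA3, DERL1, DERL3 and MOGS were not in the table. Capitals mark the 2 boxes, lower case the spacer, and each site is written in the direction of the motif:
HSPA5, ERSE, chr9:125241391-125241409: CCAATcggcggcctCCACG
HSP90B1, ERSE, chr12:103930216-103930234: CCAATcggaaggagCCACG
HSP90B1, ERSE on the opposite strand, chr12:103930321-103930339: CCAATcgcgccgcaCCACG
CALR, ERSE on the opposite strand, chr19:12938384-12938402: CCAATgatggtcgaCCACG
CANX, ERSE, chr5:179698778-179698796: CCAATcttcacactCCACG
PDIA6, ERSE, chr2:10812853-10812871: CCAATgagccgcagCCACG
CRELD2, ERSE on the opposite strand, chr22:49918554-49918572: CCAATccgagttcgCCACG
XBP1, ERSE, chr22:28800603-28800621: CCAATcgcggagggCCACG
HYOU1, ERSE-II on the opposite strand, chr11:119057274-119057284: ATTGGaCCACG
HYOU1, ERSE-II on the opposite strand, chr11:119057380-119057390: ATTGGaCCACG
HERPUD1, ERSE-II, chr16:56932025-56932035: ATTGGgCCACG
SDF2L1, ERSE-II on the opposite strand, chr22:21642114-21642124: ATTGGtCCACG
The UPRE, another stress element, searched as TGACGTGG, was in DNAJC10 and HYOU1 and in 0.729% of all windows. In HYOU1 it overlapped the ERSE-II farther from the start site. A match is a description of these letters, and a promoter without one may carry a site that differs from them or lies outside the window.

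The libraries were as labelled for the targeted gene, with RBMS1 at 3.76 FPKM after RBMS1 knockdown and 24.1 FPKM in the control. RBMS1 lies at chr2:160272151-160493794 (GENCODE 29, GRCh38, as are the gene positions given here), and its log2 ratio was -2.40. FPKM counts fragments by transcript length and by library, so that levels can be compared between genes. The files hold no read counts, so the depth is unknown, but 1 FPKM stood for a median coverage of 12.3 after RBMS1 knockdown and 11.3 in the control. Of the markers of this line and of other cells, VIM, CD44, AXL and KRT18 were between 154 and 563 FPKM, ERBB2 at 7.5 and 7.0 FPKM, and ESR1, PGR, CDH1, PTPRC and PECAM1 under 0.2 FPKM in both libraries. A gene's value adds up its reference transcripts and any transcripts that Cufflinks assembled from the reads and that share at least 1 intron with it. The log2 ratio is that of knockdown over control with 1 FPKM added to both, which understates the difference of low genes. A gene was counted where its mean FPKM was at least 1.

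Of the 40 genes, 39 reached a mean of 1 FPKM, and as a group they were nearly level between the libraries. Their summed abundance was 2468 FPKM after RBMS1 knockdown and 2560 FPKM in the control. The median log2 ratio of the 39 genes was -0.04, beside 0.02 for all 11186 genes counted, with 24 genes lower and 15 higher, beside 47.2% of all genes lower. The split of the 39 was 26 lower and 13 higher in TPM, and 27 and 12 when the libraries were centred on genes of at least 10 FPKM. The median of all genes moved down as well, to -0.002 in TPM and -0.01 centred. The share of all genes lower is not given for these scalings. In bulk RNA, fewer cells that express a gene and less RNA per cell cannot be told apart. At least a 1.5-fold difference was found in 1 gene lower, ERN1, and 1 gene higher, MANF, where 5.99% of all genes counted were lower and 6.78% were higher by that much. With 1 FPKM added, none of the 39 was at least 2-fold lower or higher, beside 2.8% and 2.96% of all genes. The level of ERN1 itself was at 43.8% of the control. With 0.1 FPKM added, 1 gene, ERN1, passed 2-fold lower (log2 ratio -1.14). ERN1 passed too in TPM (-1.05) and weighted by transcript length (-1.09). There 1 was added in those units, which weighs less on ERN1 than 1 FPKM, so these are not separate checks. Of the 39, 28 (71.8%) lay within 0.25 of no difference on the log2 scale, beside 59.9% of all genes. These shares are descriptions of 2 libraries, and the ER genes are also more abundant than most, with a median of 24.7 FPKM beside 8.09 FPKM for all genes counted.

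**Figure D1:**
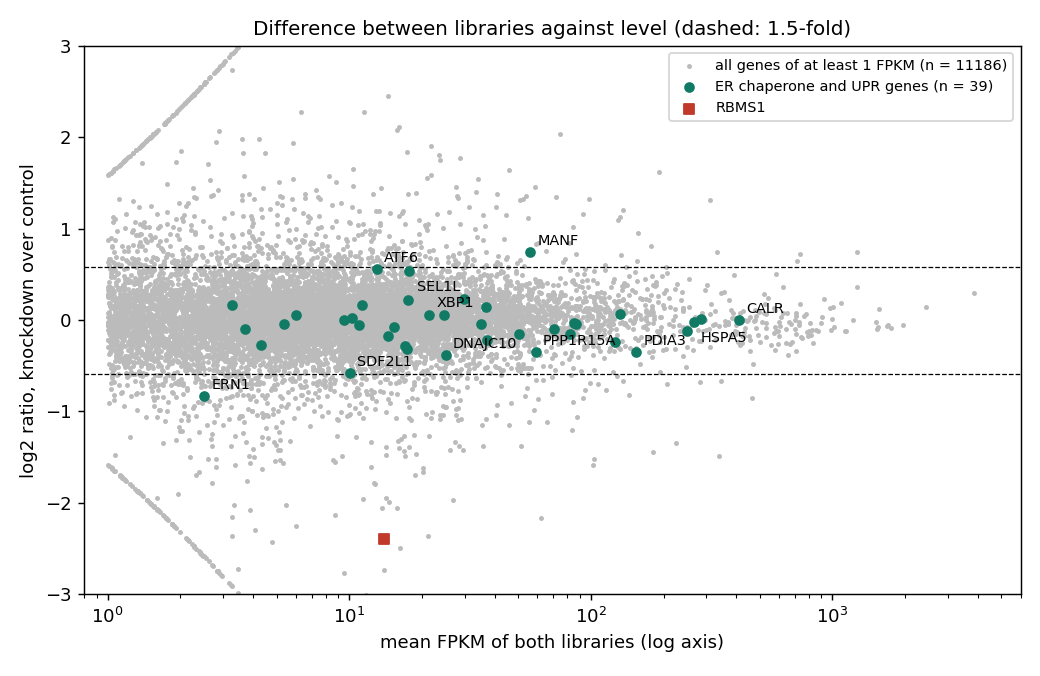
Log2 ratio of knockdown over control (vertical) against the mean FPKM of both libraries (horizontal, log axis) for 11186 genes in grey, the 39 ER chaperone and unfolded protein response genes in green and RBMS1 as a red square. Of the green points, 28 lie within 0.25 of 0, with ERN1 lowest at -0.83 and MANF highest at 0.74. The plot leaves out 113 genes beyond its limits.

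The levels of the 39 genes spanned a wide range, with 7 above 100 FPKM, 25 between 10 and 100 FPKM and 7 at or below 10 FPKM. CALR, CANX, HSPA5 and HSP90B1 were the most abundant, and the sensors ERN1 and EIF2AK3 were the least. The within-library interval that Cufflinks gives each transcript, summed over a gene, covers the uncertainty of the estimate and not the spread between cultures. These intervals did not overlap between the libraries for 8 of the 39 genes on the lower side and 4 on the higher side, beside 11.5% and 13.3% of all genes. Since intervals are narrower for abundant genes, the same was counted at a mean of at least 10 FPKM, where 7 of 32 were lower and 4 higher, beside 14.1% and 17.8% of the 4875 genes at that level.

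**Figure D2:**
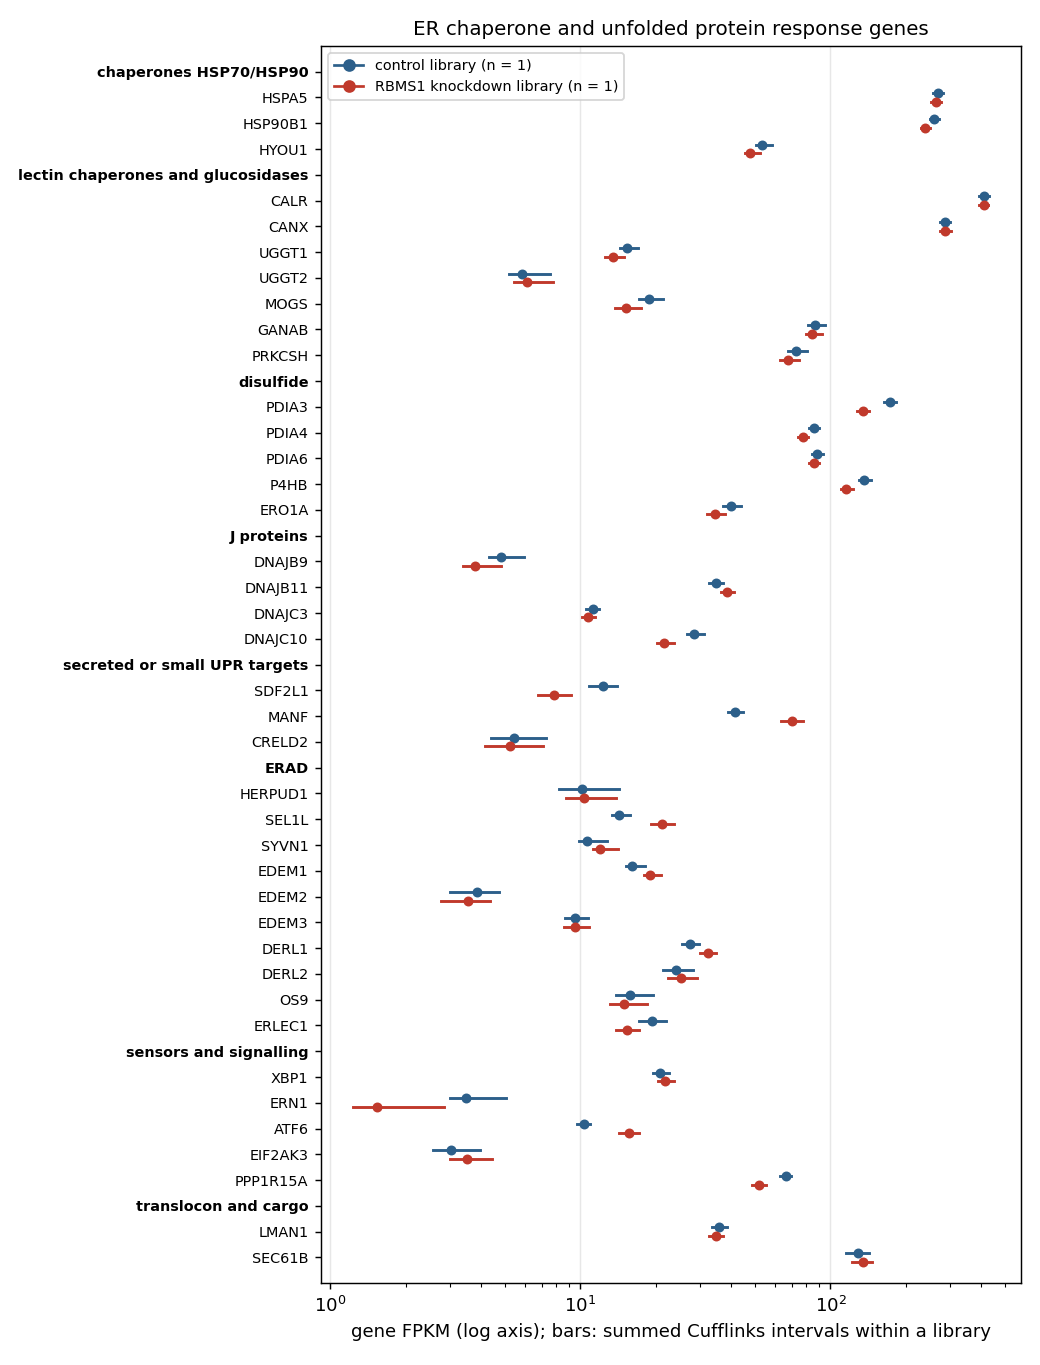
FPKM (log axis) of the 39 genes of at least 1 FPKM in the control library (blue) and the RBMS1 knockdown library (red), grouped by role, with bars for the summed within-library Cufflinks intervals. For 27 genes the bars of both libraries overlap, among them CALR at 411 and 410 FPKM, while those of ERN1, SDF2L1, PDIA3 and PPP1R15A lie apart with the knockdown library lower.

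The main folding chaperones differed little when all transcripts were summed. HSPA5 (BiP), the HSP70 of the ER that binds unfolded chains and holds the sensors inactive, was at 264 FPKM after RBMS1 knockdown and 269 FPKM in the control, giving a log2 ratio of -0.03. HSP90B1 (GRP94), its HSP90 partner, was at 239 and 260 FPKM (log2 ratio -0.12). HYOU1 (GRP170), a nucleotide exchange factor of HSPA5, was at 47.5 and 53.0 FPKM (log2 ratio -0.15). All 3 were lower under each of the 3 other scalings of the libraries too (TPM, centring on genes of at least 10 FPKM, and upper quartile), with intervals that overlapped, but with reference transcripts alone HYOU1 was higher (log2 ratio 0.18) and HSPA5 lower (-1.04). Weighted by length, HSPA5 was at -0.26. The promoters of all 3 carry stress elements, as shown.

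The lectin chaperones hold glycoproteins by a single glucose on the N-glycan and release them once it is trimmed. CALR (calreticulin) was at 410 FPKM after RBMS1 knockdown and 411 FPKM in the control, and CANX (calnexin), its membrane-bound relative, at 287 and 286 FPKM. The log2 ratios were -0.00 for CALR and 0.01 for CANX, the 2 most abundant of the 39 genes. The glucosidases that make and remove the glucose signal were slightly lower, with MOGS, which removes the outermost glucose, at 15.3 and 18.9 FPKM (log2 ratio -0.29). The catalytic subunit of the next enzyme, GANAB, was at 84.3 and 86.4 FPKM, and its partner PRKCSH at 67.7 and 72.7 FPKM, where reference transcripts alone gave PRKCSH a log2 ratio of 0.40. UGGT1, which puts the glucose back on misfolded glycoproteins, was at 13.5 and 15.4 FPKM, and its less abundant relative UGGT2 at 6.14 and 5.86 FPKM. The intervals overlapped for all 7 genes of this group, and their median log2 ratio was -0.04.

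Each of the 5 disulfide-forming genes of the set was lower in RBMS1-depleted cells, where 47.2% of all genes were lower. PDIA3 (ERp57), which works with CALR and CANX on glycoproteins, was at 135 FPKM after RBMS1 knockdown and 173 FPKM in the control, giving a log2 ratio of -0.35. P4HB, the founding protein disulfide isomerase, was at 115 and 136 FPKM (log2 ratio -0.24), and PDIA4 at 77.5 and 86.1 FPKM (log2 ratio -0.15). The intervals of these 3 isomerases did not overlap between the libraries, beside 14.1% of all genes of at least 10 FPKM with intervals lower and apart. ERO1A, the oxidase that recharges the isomerases, was at 34.5 and 40.2 FPKM (log2 ratio -0.22), and PDIA6, another isomerase, at 85.9 and 88.5 FPKM (log2 ratio -0.04), both with overlapping intervals. The median of the 5 genes was -0.22, and all 5 were lower under each of the 3 other scalings, with reference transcripts only and weighted by transcript length. No size reached 1.5-fold. Related ER proteins outside this group, named after their values were seen, went both ways. TXNDC5 had a log2 ratio of -0.55 and TMX1 of -0.56, TXNDC11 of -0.19 and ERO1B of -0.28. PDIA5 had 0.17, ERP29 0.04, TMX3 0.02 and ERP44 1.04. Weighted by transcript length TMX1 had -0.08 and ERP44 -0.11, while TXNDC5 had -0.55. PDIA3 has a processed copy, PDIA3P1, that could take some of its reads, and it was at 0.721 and 0.824 FPKM.

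The J proteins deliver clients to HSPA5 and drive its ATPase. DNAJC10 (ERdj5), which also reduces disulfides before degradation, was at 21.6 FPKM after RBMS1 knockdown and 28.5 FPKM in the control, giving a log2 ratio of -0.39 with intervals apart. DNAJB11 (ERdj3), which binds clients first, went the other way with 38.7 and 34.9 FPKM (log2 ratio 0.15). DNAJC3 (p58IPK) was at 10.8 and 11.2 FPKM. DNAJB9 (ERdj4), a target of spliced XBP1, was at 3.79 and 4.81 FPKM (log2 ratio -0.28), and its summed interval overlapped that of the control library. The intervals of its transcript ENST00000249356, which holds all of the value, lay apart, at 3.38 to 4.20 FPKM and 4.32 to 5.29 FPKM. Exons of DNAJB9 overlap those of PNPLA8 and THAP5 on the other strand.

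Of the small soluble proteins induced in ER stress, each took a different course. SDF2L1, a partner of DNAJB11, was at 7.88 FPKM after RBMS1 knockdown and 12.3 FPKM in the control, or 64.0% of the control. Its log2 ratio of -0.58 was the second lowest of the 39 genes. With 1 FPKM added SDF2L1 stayed just short of 1.5-fold, which it passed with 0.1 FPKM added (log2 ratio -0.64), in TPM (-0.64) and centred (-0.61). In TPM the amount added was 1 TPM, which weighs less than 1 FPKM in these libraries. Its intervals of 6.74 to 9.15 FPKM and 10.8 to 14.0 FPKM did not overlap. CRELD2 was at 5.25 and 5.45 FPKM (log2 ratio -0.05). Its exons overlap those of ALG12 on the other strand, which was at 3.22 and 0.907 FPKM, and no source says whether reads were assigned by strand. MANF, a secreted stress-induced factor, had the highest ratio of all, with 70.3 and 41.6 FPKM and a log2 ratio of 0.74. That difference came from 1 assembled transcript of 468 nt at 32.4 FPKM, listed in the knockdown library alone. The annotated MANF transcript, ENST00000528157, was at 38.0 and 41.6 FPKM, and by reference transcripts alone MANF was slightly lower (log2 ratio -0.13).

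Among the sensors, ERN1 had the lowest ratio of the 39 genes. ERN1 (chr17:64039142-64130819), the kinase and RNase that processes XBP1 mRNA, was at 1.53 FPKM after RBMS1 knockdown and 3.50 FPKM in the control, or 43.8% of the control, for a log2 ratio of -0.83. The summed intervals ran from 1.23 to 2.86 FPKM and from 3.01 to 5.06 FPKM. ERN1 has 2 transcripts above 0, both reference transcripts, and both were lower in the same proportion. The transcript of 22 exons, ENST00000433197, was at 0.814 FPKM after RBMS1 knockdown and 1.85 FPKM in the control, and the single-exon ENST00000606895 at 0.717 and 1.64 FPKM. The intervals of neither transcript overlapped. No assembled transcript enters this value, but the level is low. With 5 FPKM added in place of 1 its log2 ratio was -0.38, short of 1.5-fold, and with 0.1 FPKM added it was -1.14. Its rank also depended on the setting. With 5 FPKM added SDF2L1 was lower (-0.43). With reference transcripts only DERL1 (-3.59), SEL1L (-1.82) and HSPA5 (-1.04) were lower than ERN1.

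The other sensors were not lower by this much. EIF2AK3, the kinase that slows translation in ER stress, was at 3.51 and 3.04 FPKM (log2 ratio 0.16) with overlapping intervals. ATF6, the factor cut free from the membrane at the Golgi, was at 15.7 FPKM after RBMS1 knockdown and 10.3 FPKM in the control, giving a log2 ratio of 0.56. Its full-length reference transcript ENST00000367942 went the other way, at 7.86 and 10.3 FPKM, and the rest of the knockdown value was an assembled transcript of 1818 nt at 7.79 FPKM that ends before the end of the coding region. PPP1R15A (GADD34), which ends the translation block, was at 51.9 and 66.3 FPKM (log2 ratio -0.35) with intervals apart. With reference transcripts only PPP1R15A was at -0.69, past 1.5-fold, since 21.5% of its knockdown value is an assembled transcript.

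XBP1, the factor that ERN1 acts on, was level in amount. The gene was at 21.8 FPKM after RBMS1 knockdown and 20.9 FPKM in the control, giving a log2 ratio of 0.06. Of its 7 reference transcripts, 1 was above 0, ENST00000216037, which keeps the short intron. The 2 transcripts annotated without it, ENST00000344347 and ENST00000611155, were listed at 0 in both libraries, with upper interval limits of 0.0516 and 0.0294 FPKM after RBMS1 knockdown and 0.0561 and 0.0320 FPKM in the control. The piece that ERN1 removes is 26 nt long and lies in the coding part of exon 4 of 5, on the minus strand of chromosome 22. It is shown because it is the readout of ERN1 activity that transcript files can hold. The annotation places it at either of 2 positions shifted by a repeat at its ends, and removing either leaves the same mRNA. Capitals mark the 26 nt, with 2 flanking bases on each side:
ENST00000344347, chr22:28796122-28796147: caCTCAGACTACGTGCACCTCTGCAGCAgg
ENST00000611155, chr22:28796124-28796149: agCACTCAGACTACGTGCACCTCTGCAGca
A value listed at 0 does not show that the spliced form was absent, since introns this short are rare in these files. Introns under 50 nt made up 65 of 257686 introns in the transcripts above 0 in the knockdown library and 66 of 259396 in the control library. Whether the alignment could place reads across 26 nt was not tested.

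The direction of the ERAD genes depended on how transcripts were summed, and genes near 0 changed sign with the scaling. Of the 10 that were counted, 7 were higher and 3 lower, beside 52.8% of all genes higher. The split became 6 and 4 in TPM and 5 and 5 when the libraries were centred on genes of at least 10 FPKM. The median log2 ratio of all genes moved too, from 0.02 to -0.002 in TPM and -0.01 centred. For the 10 genes the median was 0.04. It was -0.01 weighted by length, with 5 higher and 5 lower. With reference transcripts only it was -0.05, with 4 higher and 6 lower. SYVN1 (HRD1), the ubiquitin ligase at the centre of ERAD, was at 12 FPKM after RBMS1 knockdown and 10.6 FPKM in the control, giving a log2 ratio of 0.16 with overlapping intervals. Its exons overlap those of FAU and MRPL49, so its reads may be divided between them. HERPUD1, a stress-induced scaffold of that ligase, was at 10.4 and 10.2 FPKM (log2 ratio 0.02).

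SEL1L, the adaptor that holds SYVN1 in place, was at 21.2 and 14.3 FPKM (log2 ratio 0.54), a difference that depended on how its transcripts were summed. In the knockdown library its reference transcripts were listed at 0 and its value was the sum of 3 assembled transcripts, 1 of them a piece of 1500 nt at 9.89 FPKM that ends before the end of the coding region. In the control library 82.2% of the value came from 1 assembled transcript of 21 exons. DERL1, a channel component of ERAD, was at 32.3 and 27.4 FPKM (log2 ratio 0.23) with intervals apart. Its reference transcripts were listed at 0 after RBMS1 knockdown and at 11 FPKM in the control, and the assembled transcripts held the rest. DERL2 was at 25.2 and 24.1 FPKM. DERL3 was listed at 0 in both libraries and is the member that was not counted. Its upper interval limits were 1.29 and 1.38 FPKM, and its exons share 2923 nt with SMARCB1 on the other strand, at 29.7 and 27.9 FPKM, so a level of 0 is not shown.

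The mannosidase-like EDEM proteins mark glycoproteins for degradation. EDEM1 was at 18.9 FPKM after RBMS1 knockdown and 16.1 FPKM in the control (log2 ratio 0.22), EDEM2 at 3.55 and 3.86 FPKM (log2 ratio -0.10), and EDEM3 at 9.51 and 9.48 FPKM (log2 ratio 0.00). The lectins that read this mark were OS9, at 14.9 and 15.8 FPKM, and ERLEC1 (XTP3-B), at 15.4 and 19.4 FPKM with a log2 ratio of -0.32 and intervals apart. In ERLEC1 most of the difference was an assembled transcript at 3.62 FPKM in the control library, and by reference transcripts alone ERLEC1 was level (log2 ratio -0.03). SEC61B, a subunit of the protein channel into the ER, was at 134 and 128 FPKM (log2 ratio 0.07), and LMAN1 (ERGIC-53), a cargo receptor for glycoproteins, at 34.8 and 35.7 FPKM (log2 ratio -0.04), both with overlapping intervals.

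Assembled transcripts entered the value of 19 of the 39 genes, so the effect of the way they are summed was followed gene by gene. The 20 genes without any had log2 ratios from -0.83 (ERN1) to 0.22 (EDEM1), with a median of -0.04. The 19 genes with assembled transcripts ran from -0.39 (DNAJC10) to 0.74 (MANF), also with a median of -0.04. With reference transcripts only, 10 of the 19 changed sign. A second sum weighted each transcript by its length, so that a short piece adds only its own share of fragments, a choice made after these values had been seen. Under it MANF had a log2 ratio of 0.29, SEL1L -0.26 and ATF6 -0.08, and no gene was at least 1.5-fold higher, where 6.55% of all genes were. ERN1 was the gene at least 1.5-fold lower, with -1.09, where 6.43% of all genes were. The 1 added in this sum is in the weighted unit, which weighs less on ERN1 than 1 FPKM. PDIA3 and PPP1R15A, which both have assembled transcripts, had -0.35 and -0.31.

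**Figure D3:**
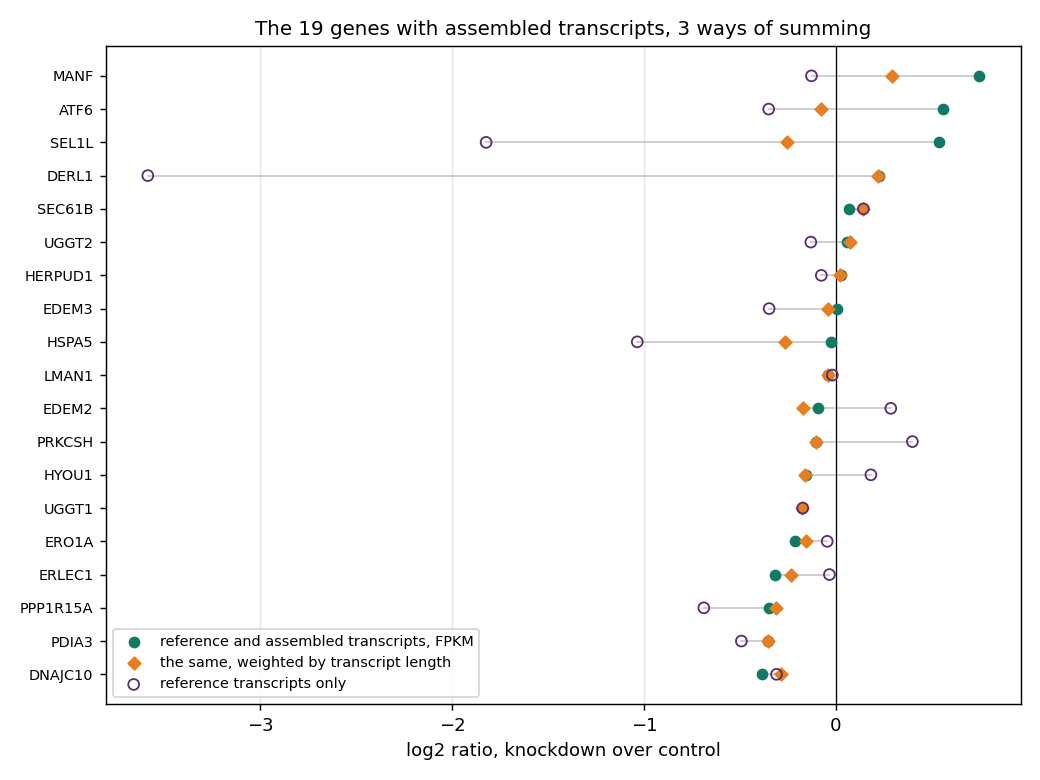
Log2 ratio of knockdown over control for the 19 genes with assembled transcripts, summed as FPKM over reference and assembled transcripts (green dots), summed with each transcript weighted by its length (orange diamonds) and summed over reference transcripts only (open circles). MANF, ATF6 and SEL1L move from above 0.5 to between -0.26 and 0.29 once length is weighted, and DERL1 falls to -3.59 with reference transcripts only.

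HSPA5 had a nearly equal total of different makeup. Its reference transcript ENST00000324460 was at 95.3 FPKM after RBMS1 knockdown and 196 FPKM in the control, while an assembled transcript was at 168 FPKM after RBMS1 knockdown and another at 72.2 FPKM in the control. These were 63.9% and 26.9% of the gene. Both assembled transcripts end in the 3′-UTR of the reference transcript, 1517 nt and 1518 nt short of its end, so both libraries list a shorter 3′ end at nearly the same place in different shares. They differ at the other end, with the first base 169 nt and 393 nt upstream of the annotated start. They also differ in exons, with 7 (2649 nt) after RBMS1 knockdown and 6 (2985 nt) in the control, against 8 in the reference transcript. The shares are therefore not those of the 3′ end alone. In PDIA3 the assembled transcripts of both libraries were alike, with 13 exons each, against 14 in the reference transcript. They end 252 nt and 251 nt short of the reference and hold 75.4% and 72.7% of the gene. Whether such a difference in makeup lies in the RNA or in how Cufflinks divides the reads of each library was not tested.

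**Figure D4:**
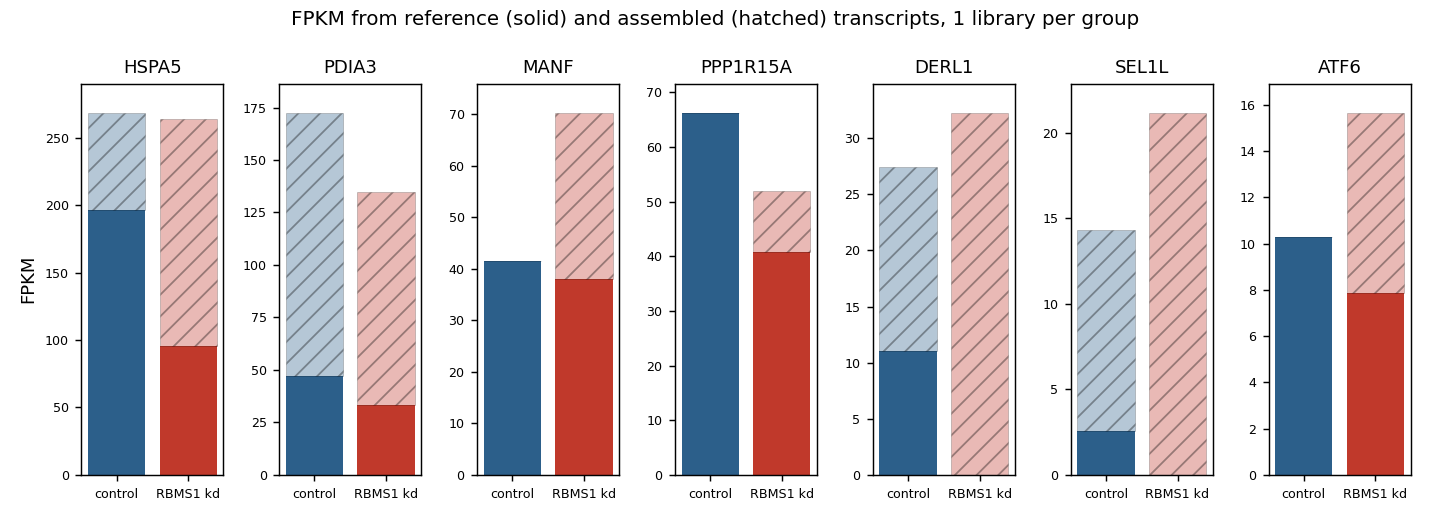
FPKM from reference transcripts (solid) and assembled transcripts (hatched) in the control library (blue) and the RBMS1 knockdown library (red) for 7 genes, each on its own axis from 0. In HSPA5 the total is nearly equal and the makeup differs, in PDIA3 the makeup is alike and the total lower, and in MANF and ATF6 the knockdown library adds an assembled transcript that the control library lacks.

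Genes with and without an ERSE or ERSE-II in the promoter window had similar median ratios. The 10 genes with an ERSE or ERSE-II ran from 5.35 to 410 FPKM with a median of 68.7 FPKM, and their log2 ratios from -0.58 (SDF2L1) to 0.06 (XBP1) with a median of -0.03. The 26 genes without either, among them DNAJC10 with its UPRE, had a median of 17.6 FPKM and log2 ratios from -0.83 to 0.74 with a median of -0.05. Of the 10, 7 were lower, and of the 26, 15 were lower, beside 47.2% of all genes. The counts became 8 and 16 in TPM, and 9 and 16 when the libraries were centred. The 47.2% does not belong to these scalings, under which the median of all genes also moved down, to -0.002 and -0.01.

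Beyond these genes, 54 other genes of ER folding, ERAD and stress signalling were looked at, of which 50 were counted. Their median log2 ratio was 0.02, with 1 at least 1.5-fold lower and 2 higher, beside 5.99% and 6.78% of all genes. Weighted by length, other genes passed that limit, TRIB3 (-0.65) and TRAF2 (-0.68) lower and FKBP7 (0.86) higher, and none of the first 3 did. TRIB3 has no assembled transcripts and was at 59.3% of the control by FPKM. Its weighted sums of 5.07 and 8.55 exceed its FPKM of 2.03 and 3.42, so the 1 added weighs less on it. By FPKM the 2 higher were ERP44 and SEC62, a helper of the protein channel. SEC62 was at 44.6 and 23.2 FPKM (log2 ratio 0.91, and 0.22 weighted by length and -0.41 with reference transcripts only). The lowest was SEC11C, a subunit of signal peptidase, at 8.34 FPKM after RBMS1 knockdown and 17.3 FPKM in the control (log2 ratio -0.97, and -0.56 weighted by length, short of 1.5-fold). The highest was ERP44, a thiol-dependent retention factor, at 15 and 6.80 FPKM (log2 ratio 1.04), which was -1.05 with reference transcripts only and -0.11 weighted by length. SEC62, TRIB3, TRAF2, FKBP7, ATF4 and DDIT3 are named outside the rule for named genes, after their values were seen. ATF4, the factor translated when EIF2AK3 is active, was at 53.4 and 58.2 FPKM (log2 ratio -0.12). DDIT3 (CHOP), its target in ER stress, was listed at 0 in both libraries, with upper interval limits of 0.429 and 0.465 FPKM. Such a 0 may be a failed estimate, so a low level of DDIT3 is not shown. The oligosaccharyltransferase, which attaches the N-glycan in the ER, had 11 subunits counted, of which none differed by 1.5-fold, with log2 ratios from -0.12 (MAGT1) to 0.32 (OSTC) and a median of 0.04.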

How the data were processed

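RNA-seq of total RNA was made from 2 libraries, grouped by their labels. The authors deposited Cufflinks transcript files with an FPKM, a within-library interval and the coverage of each transcript. The submitters' processing notes name TopHat2 2.0.9, Bowtie2 2.0.6, Cufflinks 2.1.1 and Cuffdiff 2.1.1, and the genome build and annotation are not given in the sources used here. Of the reference transcripts also in GENCODE 29 (GRCh38), 98.1% started at the same position. The authors' table of their own comparison (FPKM, fold changes, p-values and q-values) holds only transcripts chosen by p-value and was not used here.

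Genes were joined by transcript identifier to GENCODE 29, and assembled transcripts were added to the same-strand gene sharing most of their introns (at least 1). The log2 ratio used 1 FPKM added, a minimum mean of 1 FPKM, and 1.5-fold or 2-fold as limits. No statistical test was made. All 40 members and RBMS1 are named, and of each other list the genes with the largest decrease and increase and any at least 2-fold changed. The members and lists were chosen with earlier results of these data known. Other pseudocounts (0.1 and 5 FPKM), transcript sums, scalings and filters were tried. Python 3.11.15, pandas 2.3.3, numpy 2.4.6 and matplotlib 3.10.9 were used.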

Additional observations from a re-analysis of the deposited data

How the results depend on the processing

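Of 464 log2 ratios of single members under 12 alternatives, 184 equalled the reported value, mostly because a filter on low values or a gene without assembled transcripts leaves nothing to change. Of the other 280, 259 stayed inside the range set by the within-library intervals, 21 did not, and 26 changed sign. No paired analysis was possible because each group holds 1 library, and for the same reason no library could be left out. The median log2 ratio of the members, -0.04 as reported, ran from -0.13 with the dominant reference transcript only to -0.04 with 5 FPKM added. The number at least 1.5-fold lower was 2 with 0.1 FPKM added, in TPM or centred on genes of at least 10 FPKM, 0 with 5 FPKM added or a mean of at least 5 FPKM, and 5 with reference transcripts only or the dominant reference transcript only. The number at least 1.5-fold higher was 2 with 0.1 FPKM added and 0 with reference transcripts only, with the dominant transcript or weighted by length. The number at least 2-fold lower was 3 with reference or dominant transcripts only and 1 with 0.1 FPKM added, in TPM or weighted by length, an alternative chosen after seeing the data. In TPM and weighted by length, 1 was added in those units, which weighs less on ERN1 than 1 FPKM. Beyond what each setting leaves out or adds, the cause was not tested. MANF, past 1.5-fold as reported, was reversed with reference or dominant transcripts only, at -0.13, because its assembled transcript is then left out. With reference transcripts only, SEL1L went from 0.54 to -1.82, DERL1 from 0.23 to -3.59 and ATF6 from 0.56 to -0.35, all short of 1.5-fold as reported. RBMS1 was at -1.73 with 5 FPKM added. The depth in reads is unknown, and it limits the genes near 1 FPKM most.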

Other observations

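Neighbouring responses were looked at beside the ER genes. Of 16 heat shock genes that act outside the ER, mostly in the cytosol, with HSPD1 and HSPE1 in mitochondria, 11 were higher and 5 lower in RBMS1-depleted cells, with a median log2 ratio of 0.07, beside 52.8% of all genes higher. Of the 15 at a mean of at least 10 FPKM, the within-library intervals lay apart in 6 genes higher and 1 lower, beside 17.8% and 14.1% of all genes at that level. HSPH1, an HSP110 exchange factor, had the highest ratio, at 36.7 FPKM after RBMS1 knockdown and 23.6 FPKM in the control (log2 ratio 0.61, and 0.46 weighted by length and 3.73 with reference transcripts only, which are listed at 0 in the control). The lowest was HSP90AA1, at 402 and 508 FPKM (log2 ratio -0.34, and -0.33 weighted by length and -0.08 with reference transcripts only). BAG3, a co-chaperone, was at 26.1 and 18.7 FPKM (log2 ratio 0.46), and was chosen after its values were seen. Weighted by length BAG3 had 0.48, above HSPH1.

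Of 32 genes of the ATF4 amino acid response, which EIF2AK3 shares with other kinases, 24 were counted, with a median log2 ratio of 0.05. The list went in both directions, with 2 genes at least 1.5-fold lower and 2 at least 1.5-fold higher, beside 5.99% and 6.78% of all genes. The highest were DDIT4, at 9.93 and 3.19 FPKM (log2 ratio 1.38), and the amino acid transporter SLC7A5, at 191 and 82.0 FPKM (log2 ratio 1.21, and 0.74 weighted by length). The lowest was the cystine transporter SLC7A11, at 6.85 and 14.3 FPKM (log2 ratio -0.96). MTHFD2, named after its values were seen, is a mitochondrial enzyme used widely by growing cells and was listed at 0 in both libraries, as was DDIT3, so a gene listed at 0 in these files may be a failed estimate.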
